A study of Mus musculus with 40 samples.

Results

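The genes described are 9 transcription factors that direct the formation of forebrain interneurons: the distal-less homeobox genes Dlx1, Dlx2, Dlx5 and Dlx6, the medial lineage factors Lhx6, Sox6 and Maf, and the caudal lineage factors Nr2f2 and Prox1. They are defined by gene symbol, with no threshold on a measured value, and each matched 1 of the 41388 genes in the count files. RNA was sequenced from 2 mouse lines with 4 fractions each and 5 libraries per fraction, 40 in all. Both lines carried a Cre-dependent TRAP reporter, an EGFP tag on the ribosomal protein Rpl10a that lets ribosomes of Cre-expressing cells be pulled down. In RBP4-TRAP mice Cre came from the Rbp4-cre KL100 transgene, which targets layer 5 pyramidal neurons, and in VGAT-TRAP mice from the Slc32a1 locus, which targets every GABAergic neuron, interneuron or not. Mice of both sexes were 21 days old, with no untagged or Cre-negative group, and each replicate was a pool of 2 to 3 forebrains from which all 4 fractions were taken. WCH was RNA of the whole homogenate, TRAP the RNA on tagged ribosomes from that homogenate, SNF the RNA of its synaptoneurosome fraction, which is enriched in pinched-off synaptic terminals, and ST (SynapTRAP) the RNA on tagged ribosomes from that fraction. The labels name cortex as the tissue where the methods name forebrain, and 6 of 6 striatal projection neuron markers were detected in WCH of both lines, at a summed level of 389 to 764 cpm (counts of a gene for every 1000000 counts of the library). For markers, detected means at least 1 count in the group.

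In the embryo, interneurons arise in the ganglionic eminences below the cortex and migrate into it. Dlx genes act across these eminences, Dlx1 and Dlx2 ahead of Dlx5 and Dlx6, and each pair lies side by side on its chromosome. Lhx6, a LIM homeobox factor, sets the fate of parvalbumin and somatostatin interneurons from the medial eminence, where Sox6 and Maf act with or after it, and Nr2f2 (COUP-TFII) and Prox1 mark interneurons from the caudal eminence, such as the Vip, Reelin and Cck kinds. Several members are also used outside interneurons: Sox6 by oligodendrocyte precursors, Maf by microglia, Nr2f2 by vascular cells, and Prox1 by dentate granule cells and parts of the thalamus.

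Per the gene models in the files, which follow mouse chromosome coordinates of the GRCm38 kind, Dlx1 lay at chr2:71528113-71533981 on the plus strand and Dlx2 at chr2:71543408-71546754 on the minus strand, next to each other and transcribed toward each other. Dlx6 at chr6:6863334-6868568, plus, and Dlx5 at chr6:6877805-6882085, minus, were placed in the same way. Lhx6 lay at chr2:36081953-36105408, Sox6 at chr7:115471344-116038744, Maf at chr8:115682942-115707794, Nr2f2 at chr7:70351946-70366735 and Prox1 at chr1:190118035-190170714, all on the minus strand. The homeodomain is the DNA-binding part of the Dlx proteins, and its last helix, the recognition helix, reads the DNA. The 60 coding bases around that helix are printed because the family shares it and reads of 50 bases had to tell the 4 genes apart. They were read from the GENCODE M21 transcripts (GRCm38), where each window crosses a splice junction, at chr2:71531145-71532311 for Dlx1, chr2:71544877-71545395 for Dlx2, chr6:6878441-6879537 for Dlx5 and chr6:6865260-6867088 for Dlx6. Capitals mark the bases that are not the same in all 4 genes.
Dlx1: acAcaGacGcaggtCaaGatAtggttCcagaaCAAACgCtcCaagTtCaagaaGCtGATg
Dlx2: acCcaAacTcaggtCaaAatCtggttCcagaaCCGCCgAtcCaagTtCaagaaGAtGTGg
Dlx5: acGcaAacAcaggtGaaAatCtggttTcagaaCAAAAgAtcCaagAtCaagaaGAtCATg
Dlx6: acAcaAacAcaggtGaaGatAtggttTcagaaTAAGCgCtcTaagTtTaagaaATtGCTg

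Of these 60 bases 39 were the same in all 4 genes (65%), and pairs were alike at 71.7% (Dlx2 and Dlx6) to 81.7% (Dlx1 and Dlx6). Over whole transcripts the longest run shared by any pair of Dlx genes was 23 bases, so no read of 50 bases could match a pair of them along its whole length. Some windows of 50 bases were shared with other genes, and their share of all windows was 7.35% in Nr2f2, 6.09% in Dlx6, 5.19% in Dlx1, 4.64% in Maf, 1.59% in Lhx6, 1% in Prox1 and 0 in Dlx2, Dlx5 and Sox6. The homeodomain core motif TAATTA, searched on both strands between 250 bases before and 50 after the start in RefSeq promoters, was in 0 of the 14 promoters that matched Dlx1, Dlx2, Lhx6, Sox6, Nr2f2 and Prox1, against 5.29% of all 32851 promoters. Dlx5, Dlx6 and Maf were not matched in that table.

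Library totals were 14259535 to 22037703 counts before mitochondrial, rRNA and tRNA genes were left out and 8950847 to 21976631 after, so that 1 count was 0.0455 to 0.112 cpm. The targeted cells were checked by their markers. The sum of 3 GABAergic markers was 2934 to 5096 cpm in VGAT TRAP and 769 to 1171 cpm in VGAT WCH, and that of 5 layer 5 markers was 989.7 to 1397 cpm in RBP4 TRAP and 545 to 886 cpm in RBP4 WCH. Slc32a1, the gene that drives Cre in VGAT-TRAP mice and encodes the vesicular GABA transporter, was at 48.4 to 77.2 cpm in VGAT TRAP and 1.49 to 4.99 cpm in RBP4 TRAP. In ST it was at 23.3 to 51.3 cpm in VGAT libraries and at 19.7, 16.7, 10.9, 49.9 and 14.2 cpm in RBP4 ST replicates 1 to 5, so that the library labelled RBP4 ST replicate 4 stood apart in this gene, and results on RBP4 ST were also computed without it. Its sums of layer 5 markers, 1114 cpm (559 to 893 in VGAT ST), and medial interneuron markers, 222 cpm (467 to 2440 in VGAT ST), lay on the side of its label. These sums did not separate all libraries by label, however. RBP4 ST replicates 1 and 3 had layer 5 sums of 782 and 826 cpm, within the VGAT ST range. Replicate 2 had a medial sum of 630 cpm, also within it. The GABAergic sum of replicate 4, 319 cpm, did not separate the labels either. It was above the 195 to 316 cpm of the other RBP4 ST libraries and within the 242 to 692 cpm of VGAT ST. The median log2 fold change of all genes was −0.34 (RBP4) and −0.31 (VGAT) for TRAP against WCH and −0.50 and −0.52 for SNF against WCH, and within 0.11 of 0 in every other comparison.

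In the whole homogenate all members were detected in every library, and none differed detectably between the lines. Compared per length in RPKM (cpm per kilobase of exon), the order of mean level in RBP4 WCH was led by Nr2f2 at 9.24 ± 3.13 (SD, n = 5) and Maf at 5.75 ± 1.12, and Dlx2 was lowest. Nr2f2 ranged from 29.9 to 60.7 cpm across the 5 pools, the widest spread of the 9 in that group. The step from Nr2f2 to Maf in RPKM was a little larger than the SD of Nr2f2. In cpm Maf (47.4 ± 9.25) was above Nr2f2 (44.9 ± 15.2), within their spread. The paper reports that 3' priming biased the reads heavily to the 3' end, so levels per length may overstate short genes. No member was called between the lines in WCH at an adjusted p of 0.05 or lower (edgeR's quasi-likelihood test, Benjamini-Hochberg adjustment over all 16898 genes tested), where 0.0118% of all genes were called in either direction. The count was also 0 of 9 at an unadjusted p under 0.05 and with DESeq2. Differences of RBP4 from VGAT lay between −0.32 (Sox6) and 0.10 (Nr2f2) on the log2 scale, and their 95% intervals reached from −0.93 (Dlx2) to 0.70 (Nr2f2).

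**Figure D1:**
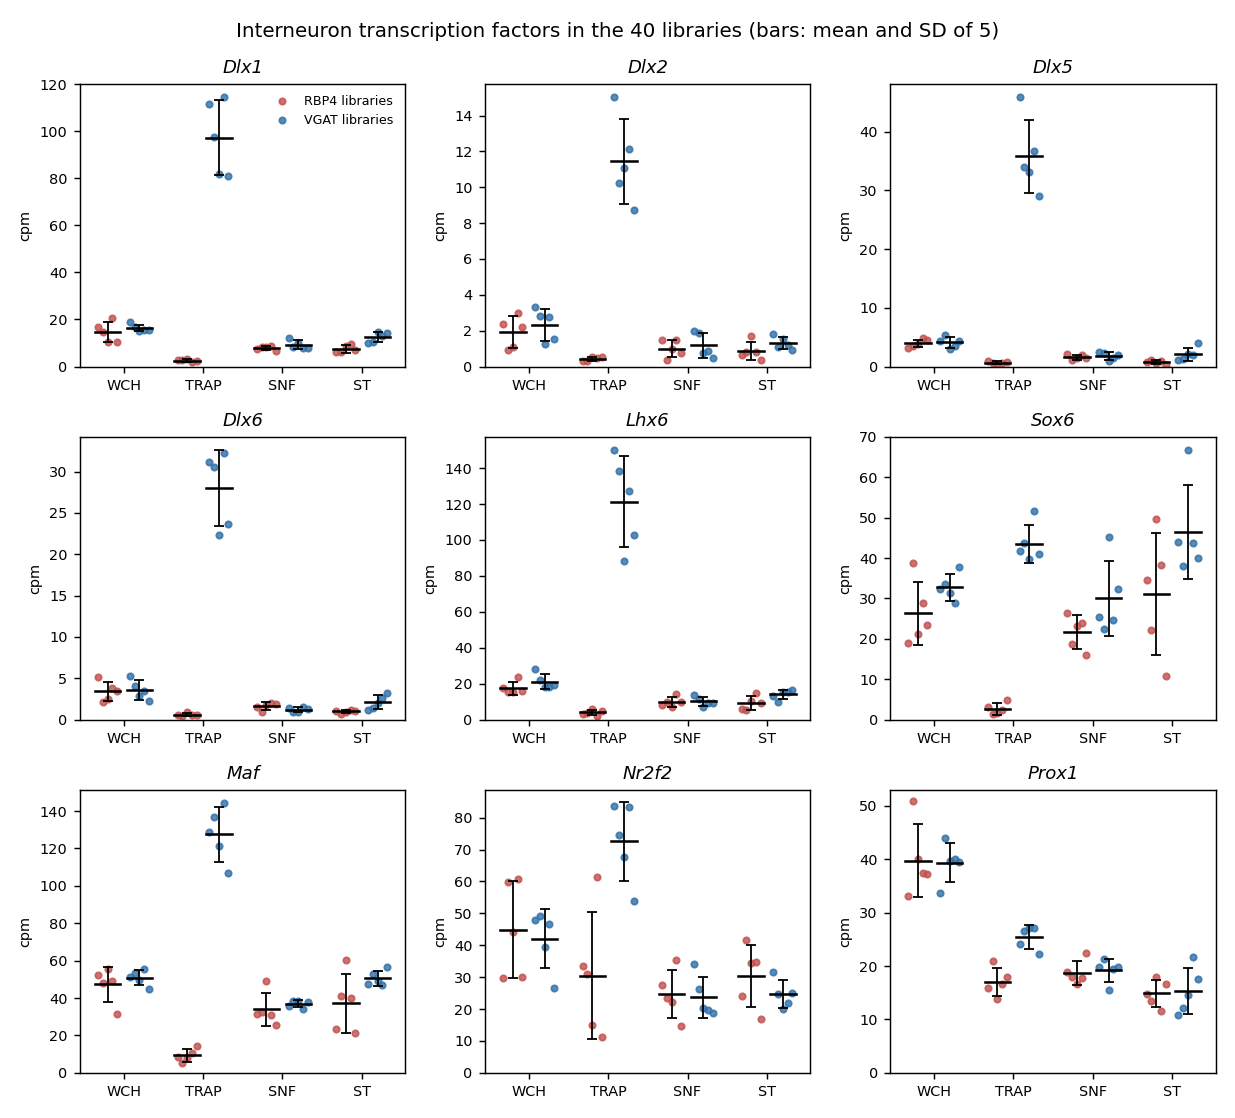
Level in cpm (y axis, a linear scale from 0 that differs between panels) of each member in the 4 fractions (x axis), 1 point per library, RBP4 libraries in red and VGAT libraries in blue, with bars for the mean and SD of 5. VGAT TRAP has the highest mean of the 8 groups for 7 of the 9 members, while Sox6 is highest in VGAT ST (46.5 cpm against 43.6 in VGAT TRAP) and Prox1 in RBP4 WCH (39.8 cpm).

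Ribosome-bound RNA of GABAergic neurons was rich in the Dlx genes, and that of layer 5 neurons was poor in them. Dlx1 was at 111, 97.4, 81.9, 115 and 81.1 cpm in VGAT TRAP replicates 1 to 5 and at 18.7, 16.7, 15.2, 15.6 and 15.6 cpm in the WCH of the same pools. In the RBP4 line it was at 2.68, 2.72, 3.11, 1.73 and 2.52 cpm in TRAP and at 16.8, 14.7, 10.46, 20.4 and 10.43 cpm in WCH. Every VGAT TRAP library was thus above every WCH library, and every RBP4 TRAP library below. Dlx1 rose 5.94-fold from WCH to TRAP in the VGAT line (log2 fold change 2.57, SE 0.15, adjusted p = 1.26e-10) and fell 5.70-fold in the RBP4 line (log2 fold change −2.51, SE 0.23, adjusted p = 2.72e-07). Between the lines the TRAP level differed 38.1-fold (log2 −5.25 for RBP4 against VGAT, SE 0.22, adjusted p = 2.71e-17). In these bulk samples fewer cells of a type and less RNA per cell cannot be told apart.

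Dlx2, the partner of Dlx1 on chromosome 2, was the lowest of the Dlx genes in TRAP per length, at 4.01 ± 0.83 RPKM in VGAT TRAP and 0.145 ± 0.038 RPKM in RBP4 TRAP (SD, n = 5 each). Its VGAT TRAP levels were 15.0, 10.2, 11.1, 12.2 and 8.75 cpm against 3.33, 2.80, 1.24, 2.75 and 1.52 cpm in VGAT WCH. In RBP4 TRAP it was at 0.298, 0.297, 0.519, 0.455 and 0.504 cpm, which rest on 5 to 10 counts a library, against 2.36, 0.933, 1.09, 3.01 and 2.22 cpm in RBP4 WCH. The groups did not overlap in either line. Dlx2 rose by 2.29 on the log2 scale (SE 0.31, adjusted p = 2.21e-06) from WCH to TRAP in the VGAT line and fell by 2.19 (SE 0.47, adjusted p = 8.49e-04) in the RBP4 line.

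Dlx5 had the largest difference between the lines in TRAP of all members. It was at 45.9, 34.0, 33.1, 36.8 and 29.1 cpm in VGAT TRAP and at 0.954, 0.545, 0.415, 0.637 and 0.784 cpm in RBP4 TRAP, 53.5-fold apart (log2 −5.74, SE 0.33, adjusted p = 2.34e-14). WCH lay between them, at 4.31, 5.36, 3.01, 3.54 and 4.35 cpm in the VGAT line and 3.23, 3.42, 3.83, 4.78 and 4.44 cpm in the RBP4 line. Against WCH, Dlx5 rose 8.66-fold in VGAT TRAP (adjusted p = 8.47e-09) and fell 5.88-fold in RBP4 TRAP (adjusted p = 9.45e-06). Dlx6, its neighbour, followed at 31.2, 30.5, 22.4, 32.2 and 23.6 cpm in VGAT TRAP and 0.536, 0.396, 0.882, 0.592 and 0.616 cpm in RBP4 TRAP, a difference of 45.8-fold (log2 −5.52, SE 0.31, adjusted p = 2.01e-14). It rose 7.79-fold from WCH to TRAP in the VGAT line and fell 5.58-fold in the RBP4 line, with adjusted p = 5.21e-09 and 9.36e-06. All 5 pools of each line moved in the direction given for each of the 4 Dlx genes.

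Lhx6 was the most abundant member in VGAT TRAP per length, together with Dlx5: 25.2 ± 5.29 and 25.1 ± 4.42 RPKM (SD, n = 5), which do not differ beyond their spread. The place of Dlx5, the shortest member at 1423 bases, rests on the division by length. In mean cpm Maf (127.5) and Lhx6 (121) were highest there, and Dlx5 was at 35.8. Lhx6 was at 150, 138, 88.3, 127 and 103 cpm in VGAT TRAP and at 28.3, 22.1, 17.9, 18.4 and 19.1 cpm in VGAT WCH. RBP4 libraries held 3.28, 3.76, 5.86, 2.09 and 5.10 cpm in TRAP and 17.7, 15.5, 15.2, 23.8 and 15.9 cpm in WCH. Lhx6 thus stood above WCH in every VGAT TRAP library (5.72-fold, log2 2.52, SE 0.19, adjusted p = 1.83e-09) and below it in every RBP4 TRAP library (4.38-fold, log2 −2.13, SE 0.30, adjusted p = 1.37e-05). The TRAP samples of the lines differed 30.2-fold (adjusted p = 2.72e-14).

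Maf, a bZIP factor of medial interneurons, was at 129, 137, 121, 144 and 107 cpm in VGAT TRAP against 51.1, 53.2, 49.6, 55.4 and 44.8 cpm in VGAT WCH. The RBP4 line held 8.52, 5.35, 8.04, 10.6 and 14.3 cpm in TRAP and 52.2, 48.3, 55.8, 49.1 and 31.7 cpm in WCH. Its rise in VGAT TRAP, 2.51-fold (log2 1.33, SE 0.10, adjusted p = 2.27e-09), was smaller in value than that of Lhx6, while its fall in RBP4 TRAP, 5.07-fold (log2 −2.34, SE 0.28, adjusted p = 2.85e-06), was of like size. Markers of microglia, which also use Maf, were at a sum of 9.80 to 34.7 cpm in RBP4 TRAP and 106 to 218 cpm in RBP4 WCH, and at 19.3 to 82.3 cpm in VGAT TRAP and 176 to 258 cpm in VGAT WCH (6 of 6 detected in each). In RBP4 TRAP 2 of the 6 microglia markers had a mean under 1 cpm. The part of microglia in the Maf values of WCH was not tested.

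Sox6, an SRY-related factor that keeps medial interneurons on course, differed from the other medial genes. It was at 19.0, 38.7, 21.3, 29.0 and 23.5 cpm in RBP4 WCH and at 3.10, 1.39, 1.56, 2.50 and 4.93 cpm in RBP4 TRAP. Its fall was the largest of any member in RBP4 TRAP (9.78-fold, log2 −3.29, SE 0.37, adjusted p = 1.23e-06). VGAT libraries held 32.4, 33.5, 31.3, 28.9 and 37.9 cpm in WCH and 41.8, 43.7, 39.7, 51.6 and 41.0 cpm in TRAP. These groups did not overlap, but the rise was only 1.33-fold (log2 0.41, SE 0.17, adjusted p = 0.0431). That call was lost without VGAT replicate 1 (adjusted p = 0.0923), 2 (0.0778), 4 (0.213) or 5 (0.0506), with log2 values of 0.30 to 0.49 over the pools left out. It was also lost with all 40 libraries in 1 fit (adjusted p = 0.193) and with no filter on low counts (0.0543). Between the lines Sox6 in TRAP differed 16.2-fold (log2 −4.02, SE 0.33, adjusted p = 5.56e-11). Markers of oligodendrocyte precursors, which also use Sox6, were at a sum of 147 to 173 cpm in RBP4 WCH and 151 to 178 cpm in VGAT WCH but at 10.4 to 57.7 cpm in RBP4 TRAP and 11.2 to 54.5 cpm in VGAT TRAP (6 of 6 detected in each), and their part in these contrasts was not tested.

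The caudal factors behaved unlike the Dlx genes. Nr2f2, a nuclear receptor, was at 83.7, 74.5, 67.8, 83.2 and 53.9 cpm in VGAT TRAP and at 48.1, 49.0, 39.6, 46.7 and 26.8 cpm in VGAT WCH, a rise of 1.73-fold (log2 0.79, SE 0.18, adjusted p = 8.65e-04). RBP4 mice had it at 33.5, 31.1, 14.9, 61.4 and 11.3 cpm in TRAP and at 29.9, 59.9, 44.2, 60.7 and 29.9 cpm in WCH. RBP4 TRAP thus spread widely and overlapped WCH, with TRAP above WCH in 2 of 5 pools, and the difference did not pass (log2 −0.56, SE 0.35, adjusted p = 0.210). With the pool as a replicate block, which pairs the fractions of a pool, it did (log2 −0.69, SE 0.24, adjusted p = 0.0218). The sum of 6 mural and vascular fibroblast markers in RBP4 TRAP replicates 1 to 5 was 85.9, 106, 51.5, 142 and 50.7 cpm, highest in the library with the most Nr2f2 and lowest in the one with the least. In VGAT TRAP that sum was 9.63 to 68.7 cpm. Of these 6 markers, 2 had a mean under 1 cpm in TRAP of either line. The match in RBP4 TRAP was not particular to that list. Sums of layer 5 and dentate granule cell markers were also highest in replicate 4 (1397 and 52.2 cpm) and lowest in replicate 5 (990 and 36.5 cpm). The endothelial sum, low in all 5, was instead highest in replicate 5 (5.21 cpm). The part of any of these cells in the Nr2f2 values was not tested. Nr2f2 in TRAP was 2.38-fold lower in RBP4 than in VGAT mice (log2 −1.25, SE 0.31, adjusted p = 0.00242), although RBP4 TRAP replicate 4 lay within the VGAT range.

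Prox1, a homeobox factor that caudal interneurons keep into adulthood, fell from WCH to TRAP in both lines. It was at 24.0, 26.6, 27.1, 27.2 and 22.3 cpm in VGAT TRAP against 33.8, 44.0, 39.6, 40.03 and 39.5 cpm in VGAT WCH (log2 −0.63, SE 0.15, adjusted p = 0.0011). In the RBP4 line it was at 15.97, 20.9, 13.8, 16.7 and 17.98 cpm in TRAP against 33.1, 51.0, 40.1, 37.4 and 37.2 cpm in WCH (log2 −1.22, SE 0.17, adjusted p = 1.21e-05). The VGAT TRAP libraries were above every RBP4 TRAP library, by 1.49-fold (log2 −0.57 for RBP4 against VGAT, SE 0.16, adjusted p = 0.00818). Markers of dentate granule cells, 4 of 4 detected, were at a sum of 36.5 to 52.2 cpm in RBP4 TRAP, above the 15.6 to 17.6 cpm of RBP4 WCH, and at 2.38 to 7.14 cpm in VGAT TRAP. Thalamic neuron markers, 5 of 5 detected, went from a sum of 87.1 to 223 cpm in RBP4 WCH to 41.0 to 56.2 cpm in RBP4 TRAP. In the VGAT line they went from 116 to 163 cpm in WCH to 28.4 to 46.4 cpm in TRAP. Of the dentate markers, 2 of 4 had a mean under 1 cpm in VGAT TRAP. Of the thalamic markers, 2 of 5 did in RBP4 TRAP and 1 of 5 in VGAT TRAP and in WCH of both lines. Like Prox1, the thalamic sum was thus lower in TRAP in both lines. That trait was shared by other lists and does not single out thalamic cells. Oligodendrocyte, oligodendrocyte precursor, astrocyte, microglia and endothelial sums were also lower in every TRAP library than in any WCH library of the same line. The part of any of these cells in the Prox1 levels was not tested.

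Counted together, 8 of 9 members were higher in VGAT TRAP than in WCH, where 21% of all genes were called higher, and Prox1 alone was lower, where 41.8% were. In RBP4 TRAP 8 of 9 were lower than WCH, where 31.5% of all genes were called lower. The median log2 fold change over the 9 members was 2.29 and −2.34, against −0.31 and −0.34 over all genes tested. With TMM scaling the calls of all genes became more even, at 4987 higher and 5530 lower in the VGAT line in place of 3561 and 7106, and at 3296 and 3815 in the RBP4 line in place of 1427 and 5372. Every member kept its direction in both comparisons with TMM scaling. Between the lines all 9 members were lower in RBP4 TRAP, where 15.1% of all genes were called lower and 12.9% higher (2546 and 2183 genes, or 2208 and 2517 with TMM scaling).

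The change from WCH to TRAP was itself tested between the lines, and 8 of 9 members were called with the more negative change in the RBP4 line, where 6.97% of all genes were. The difference of changes ran from −5.68 for Dlx5 (SE 0.42, adjusted p = 3.30e-11) through −5.44 for Dlx6, −5.08 for Dlx1, −4.65 for Lhx6, −4.48 for Dlx2, −3.70 for Sox6 and −3.67 for Maf to −1.35 for Nr2f2 (SE 0.43, adjusted p = 0.0353). Prox1 did not pass, at −0.59 (SE 0.23, adjusted p = 0.0994). The call on Nr2f2 was lost with TMM scaling (−1.26, adjusted p = 0.0566), without RBP4 replicate 2 or 3 (adjusted p = 0.086 and 0.0916) and without any one of VGAT replicates 1 to 5 (adjusted p of 0.0668 to 0.0842).

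**Figure D2:**
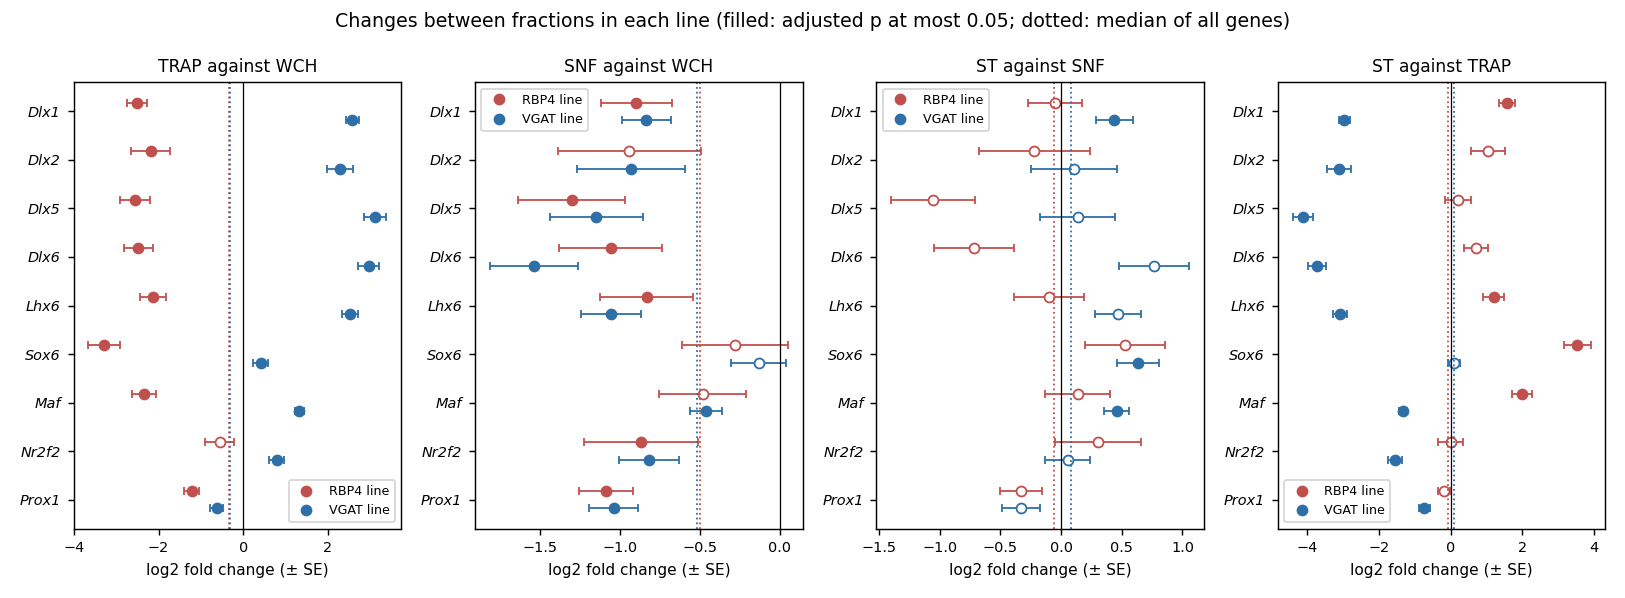
Log2 fold change ± SE (x axis) of each member (y axis) in 4 comparisons of fractions, RBP4 line in red and VGAT line in blue, filled where adjusted p is at most 0.05, with a dotted line at the median of all genes. From WCH to TRAP the values of the lines lie on opposite sides of 0 for every member but Prox1, whose change is negative in both lines (Nr2f2 did not pass in the RBP4 line), and from TRAP to ST the Dlx genes, Lhx6 and Maf fall in the VGAT line while Dlx1, Lhx6, Sox6 and Maf rise in the RBP4 line.

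The synaptoneurosome fraction held less of most members than the homogenate it came from. In RBP4 SNF 6 of 9 were called lower than WCH, where 36.1% of all genes were: Dlx5 (log2 −1.30, SE 0.33, adjusted p = 0.00297), Prox1 (−1.09, SE 0.17, adjusted p = 1.24e-04), Dlx6 (−1.06), Dlx1 (−0.90), Nr2f2 (−0.87) and Lhx6 (−0.83). In VGAT SNF 8 of 9 were, where 45.2% of all genes were: Dlx6 (−1.53, SE 0.28, adjusted p = 5.43e-05), Dlx5 (−1.15), Lhx6 (−1.05), Prox1 (−1.04), Dlx2 (−0.93), Dlx1 (−0.83), Nr2f2 (−0.82) and Maf (−0.46). The median of all genes was itself at −0.50 and −0.52, and relative to it Dlx6 was at −0.56 and −1.02, Prox1 at −0.59 and −0.52, and Maf at 0.02 and 0.06 in the RBP4 and VGAT lines. In single libraries Prox1 was at 18.9, 18.0, 16.6, 17.7 and 22.4 cpm in RBP4 SNF and 19.9, 21.3, 15.5, 19.4 and 19.8 cpm in VGAT SNF, below every WCH library. Dlx6 was at 1.54, 0.925, 1.76, 2.03 and 1.957 cpm and at 1.395, 0.941, 0.894, 1.57 and 1.29 cpm, also below every WCH library of its line. Sox6 did not pass in either line, at −0.28 (adjusted p = 0.492) and −0.13 (adjusted p = 0.513), above the median of all genes. With TMM scaling, which gave 3284 higher and 3048 lower genes in place of 2286 and 6161 in the RBP4 line and 4187 and 4747 in place of 3283 and 7680 in the VGAT line, Sox6 turned to 0.07 and 0.23. Only Dlx5 and Prox1 were then called in the RBP4 line. With that scaling the VGAT line had 6 calls, as Maf (−0.10, adjusted p = 0.444) and Dlx2 (−0.57, adjusted p = 0.183) were lost. Leaving out RBP4 replicate 1 left 3 calls there, as Lhx6, Dlx6 and Nr2f2 were lost (adjusted p = 0.0782, 0.0882 and 0.0668). Nr2f2 was also lost without RBP4 replicate 2 (0.177), 3 (0.10) or the library RBP4 ST replicate 4 (0.0524), Lhx6 without RBP4 replicate 3 (0.0559) and Dlx2 in the VGAT line without VGAT replicate 4 (0.115). Without VGAT replicate 3, Sox6 was called in the VGAT line at −0.34 (adjusted p = 0.0279).

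No difference of a member between the lines was detected in SNF. None of the 9 was called (0 also at an unadjusted p under 0.05 and with DESeq2), where 0.0178% of all genes were in either direction. Differences lay between −0.47 (Sox6) and 0.40 (Dlx6) on the log2 scale, with 95% intervals reaching from −1.08 (Dlx2) to 0.97 (Dlx6).

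In SynapTRAP the lines lay far closer together than in TRAP. Dlx1 was at 5.98, 6.35, 8.85, 9.68 and 6.95 cpm in RBP4 ST and at 10.02, 10.6, 14.6, 13.2 and 14.1 cpm in VGAT ST, and Lhx6 at 6.04, 5.22, 10.7, 15.0 and 9.27 cpm against 13.3, 10.03, 15.7, 15.5 and 16.2 cpm. Dlx5 was at 0.805, 1.18, 0.581, 0.915 and 0.313 cpm in RBP4 ST and 1.05, 1.25, 2.12, 2.01 and 3.97 cpm in VGAT ST. The groups overlapped for Dlx5 and Lhx6 but not for Dlx1, whose lowest VGAT library was just above its highest RBP4 library. Dlx5 was the 1 member of 9 called between the lines in ST (log2 −1.40, SE 0.31, adjusted p = 0.0354), where 0.266% of all genes were called lower (45 lower and 10 higher, or 36 and 15 with TMM scaling). Its call was lost with TMM scaling (adjusted p = 0.0576) and without any one of RBP4 replicates 1, 3 and 5 (adjusted p = 0.0822, 0.113 and 0.113) or VGAT replicates 3, 4 and 5 (0.0762, 0.117 and 0.325), with log2 values of −1.42 to −1.03 over these. Without the library RBP4 ST replicate 4 it was −1.47 (adjusted p = 0.0292), and Dlx1 was called as well (−0.83, adjusted p = 0.0317, in place of −0.72 and 0.0998). Without all libraries of RBP4 replicate 4, Lhx6 passed too (−0.86, adjusted p = 0.0483, in place of −0.62 and 0.342). Dlx6 was at 1.04, 0.706, 0.969, 1.18 and 1.06 cpm in RBP4 ST and 1.22, 1.47, 2.03, 2.68 and 3.25 cpm in VGAT ST, next to each other without overlap. Nr2f2 at 17.0 to 41.6 and 20.1 to 31.6 cpm and Prox1 at 11.6 to 18.0 and 10.7 to 21.6 cpm overlapped widely. Over the members other than Dlx5, differences lay between −1.09 (Dlx6, adjusted p = 0.116) and 0.30 (Nr2f2, adjusted p = 0.752).

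**Figure D3:**
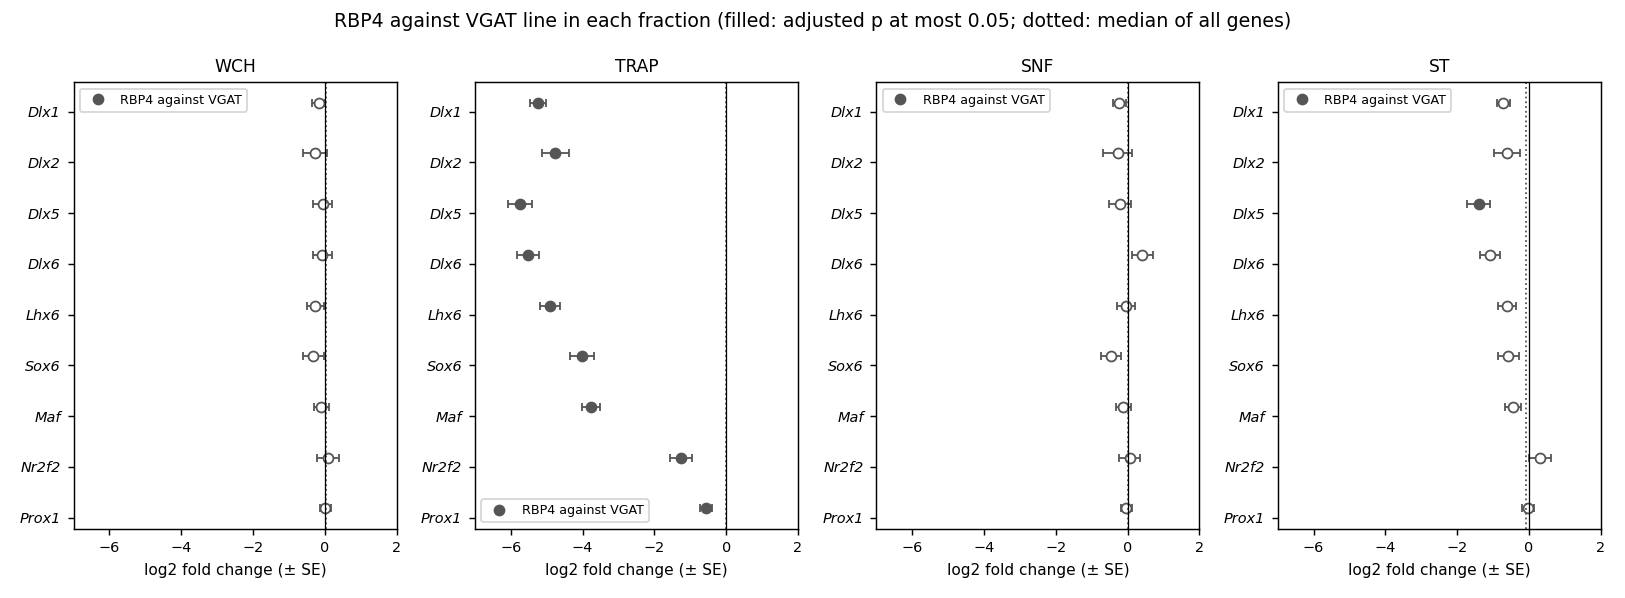
Log2 fold change ± SE (x axis) of RBP4 against VGAT libraries for each member (y axis) in the 4 fractions, filled where adjusted p is at most 0.05, with a dotted line at the median of all genes. All 9 members lie left of 0 and are filled in TRAP, from −5.74 for Dlx5 to −0.57 for Prox1, while 1 is filled in ST and none in WCH or SNF.

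This narrowing was tested directly as the difference between ST and TRAP of the log2 change between the lines. It was positive and called for 8 of 9 members, where 5.02% of all genes were called in that direction: 4.53 for Dlx1 (SE 0.27, adjusted p = 1.31e-12), 4.43 for Dlx6, 4.34 for Dlx5, 4.30 for Lhx6, 4.14 for Dlx2, 3.44 for Sox6, 3.33 for Maf and 1.55 for Nr2f2 (SE 0.44, adjusted p = 0.0173). Prox1 did not pass, at 0.54 (SE 0.23, adjusted p = 0.149). Nr2f2 lost its call without RBP4 replicate 3 (1.33, adjusted p = 0.0612) or VGAT replicate 4 (1.46, adjusted p = 0.0627). Without the library RBP4 ST replicate 4 the same 8 were called, Lhx6 at 4.05.

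Within the VGAT line 8 of 9 members were lower in ST than in TRAP, where 34% of all genes were called lower. Dlx5 fell 17.4-fold (log2 −4.12, SE 0.29, adjusted p = 1.01e-10) and Dlx6 13.3-fold (−3.73). Falls of Dlx2 (−3.11), Lhx6 (−3.10) and Dlx1 (−2.96) were near each other, and those of Nr2f2 (−1.55), Maf (−1.33) and Prox1 (−0.73) smaller. Sox6 alone did not pass, at 39.7 to 51.6 cpm in TRAP and 43.9, 38.1, 66.8, 43.7 and 40.01 cpm in ST (log2 0.09, SE 0.17, adjusted p = 0.64, 95% interval −0.24 to 0.43), and it was at −0.10 without VGAT replicate 3, the library at 66.8 cpm. That library also had the highest sum of oligodendrocyte precursor markers in VGAT ST, 392 cpm, where the group ranged from 189 and VGAT TRAP from 11.2 to 54.5. Its astrocyte (17924 cpm) and mural and vascular fibroblast (1246 cpm) sums were the highest of VGAT ST too, but not its oligodendrocyte and microglia sums. In the RBP4 line 4 of 9 members were higher in ST than in TRAP, where 26% of all genes were called higher: Sox6 (log2 3.53, SE 0.37, adjusted p = 1.67e-07), Maf (3.99-fold, SE 0.28 on the log2 scale), Dlx1 (1.57, SE 0.23) and Lhx6 (1.20, SE 0.30). With the replicate block Dlx6 passed too (0.71, adjusted p = 0.0498), and with TMM scaling or DESeq2 6 members were called, with Dlx2 (adjusted p = 0.0424 and 0.0243) and Dlx6 (0.0421 and 0.0285) added. Dlx2 also passed without RBP4 replicate 5 (1.29, adjusted p = 0.0395). Without the library RBP4 ST replicate 4 the same 4 were called, Lhx6 at 0.95 (adjusted p = 0.0080). Sox6 was at 34.7, 22.2, 49.7, 38.4 and 10.8 cpm in RBP4 ST and Maf at 23.6, 41.0, 60.5, 40.1 and 21.5 cpm.

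Markers of cell types moved between TRAP and ST too. In the VGAT line the GABAergic sum was 2934 to 5096 cpm in TRAP and 242 to 692 cpm in ST, while the oligodendrocyte sum was 433 to 2413 cpm and 32577 to 54690 cpm and the astrocyte sum 160 to 1037 cpm and 4907 to 17924 cpm, with every marker of these lists detected. The fall of the 8 members in VGAT ST thus stood beside a lower GABAergic sum and higher glial sums, whose part in it was not tested. In the RBP4 line the oligodendrocyte precursor sum went from 10.4 to 57.7 cpm in TRAP to 135 to 505 cpm in ST, the microglia sum from 9.80 to 34.7 cpm to 65.4 to 287 cpm, and the oligodendrocyte sum from 388 to 5508 cpm to 31796 to 44757 cpm, with every marker of these lists detected. The highest oligodendrocyte precursor sum in RBP4 ST, in replicate 3, was in the library with the most Sox6, and the lowest, in replicate 5, in the library with the least. This was not particular to precursor markers, as the astrocyte sum was also highest in replicate 3 (20465 cpm) and lowest in replicate 5 (3738 cpm). The oligodendrocyte and microglia sums were lowest in replicate 5 too, but highest in replicates 1 and 2. The GABAergic sum was 89.5 to 137 cpm in RBP4 TRAP replicates 1 to 4, 434 cpm in replicate 5, and 195 to 319 cpm in RBP4 ST. Their part in the rise of Sox6, Maf, Dlx1 and Lhx6 was not tested.

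**Figure D4:**
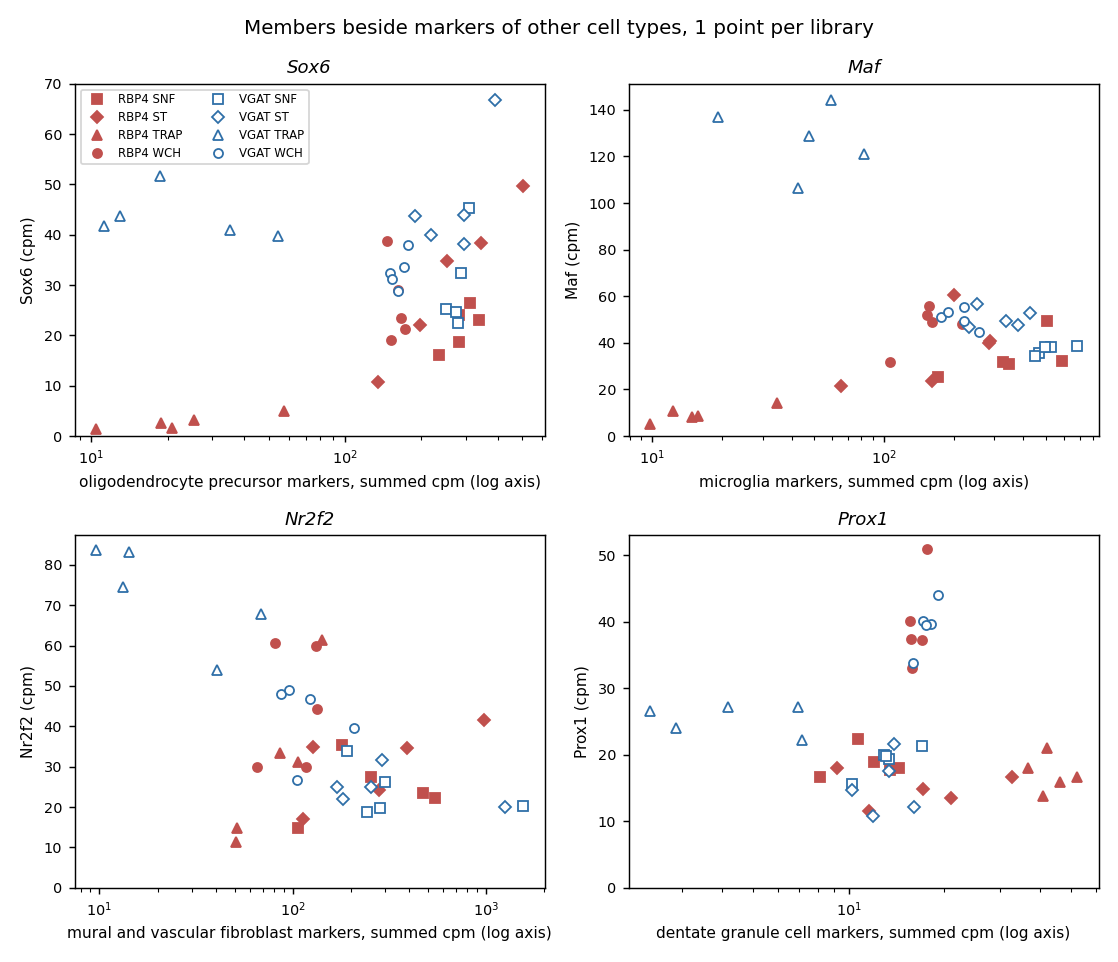
Level in cpm (y axis) of Sox6, Maf, Nr2f2 and Prox1 against the summed cpm (x axis, log scale) of markers of another cell type known to use the gene, 1 point per library, RBP4 filled and VGAT open, with a symbol for each fraction. The VGAT TRAP libraries keep Sox6 at 39.7 to 51.6 cpm with precursor markers at 11.2 to 54.5 cpm, while the RBP4 TRAP libraries are low in both.

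Against its synaptoneurosome input, ST differed for few members. In the RBP4 line none of the 9 members was called (edgeR; 2 at an unadjusted p under 0.05, 1 with DESeq2), where 11.1% of all genes were in either direction. Dlx5, at 2.08, 1.04, 1.47, 2.03 and 1.39 cpm in RBP4 SNF, was nearest to a call (log2 −1.05, SE 0.35, adjusted p = 0.0508), which the replicate block gave (−1.04, adjusted p = 0.0464), as did leaving out RBP4 replicate 2 (adjusted p = 0.0278). In the VGAT line 3 of 9 were higher in ST, where 16.3% of all genes were called higher (2771, against 1905 lower, or 1987 and 2480 with TMM scaling): Maf (log2 0.46, SE 0.10, adjusted p = 0.00156), Sox6 (0.63, SE 0.17, adjusted p = 0.00831) and Dlx1 (0.44, SE 0.15, adjusted p = 0.0353). With the replicate block Lhx6 (0.51, adjusted p = 0.0258) and Dlx6 (0.79, adjusted p = 0.0481) passed too. The Dlx1 call was lost without VGAT replicate 2, 3, 4 or 5 (adjusted p = 0.0917, 0.0778, 0.154 and 0.182) and with TMM scaling (0.141), and that of Sox6 without VGAT replicate 1 (0.0509). With all 40 libraries in 1 fit the calls on Maf (0.117), Sox6 (0.0951) and Dlx1 (0.074) were all lost, and Dlx6 was called (0.78, adjusted p = 0.0454). Without VGAT replicate 1, Dlx6 (0.98, adjusted p = 0.0232) and Lhx6 (0.62, adjusted p = 0.0263) passed, and Lhx6 did without VGAT replicate 2 (0.63, adjusted p = 0.0434). With TMM scaling Prox1 was called lower (−0.44, adjusted p = 0.0316, in place of −0.33 and 0.122), and likewise without VGAT replicate 4 (adjusted p = 0.0384). The change from SNF to ST did not differ between the lines for any member (0 called by edgeR and DESeq2, 2 at an unadjusted p under 0.05), and 0% of all genes were called. The values ran from −1.49 (Dlx6) to 0.25 (Nr2f2). GABAergic sums of VGAT SNF (238 to 643 cpm) and ST (242 to 692 cpm) overlapped. So did layer 5 sums of RBP4 SNF (844 to 1213 cpm) and ST (782 to 1391 cpm). Oligodendrocyte sums were higher in ST, at 32577 to 54690 cpm against 14880 to 18033 cpm in VGAT SNF. In the RBP4 line they were at 31796 to 44757 cpm against 12186 to 18772 cpm. Microglia sums were lower in VGAT ST (233 to 428 cpm) than in VGAT SNF (450 to 683 cpm). The part of these cells in ST was not tested.

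Other transcription factor lists show what else divided the lines. Of 20 other factors of interneuron lineages, 19 were tested between the lines and 14 were lower in RBP4 TRAP, where 15.1% of all genes were, among them Sp9 (log2 −5.05), while St18 was higher (1.07), as 12.9% of all genes were. The list's median was −1.73, against −0.01 over all genes tested. In VGAT TRAP 13 of 19 were higher than WCH (21% of all genes), such as Sp9 (2.55), and 5 lower (41.8% of all genes), such as St18 (−2.16) and Zeb2 (−1.14). Of 10 factors of striatal projection neurons, which are GABAergic but not interneurons, 9 were lower in RBP4 TRAP (15.1% of all genes), led by Six3 (−5.67), Rarb (−3.58) and Rxrg (−3.52), with a median of −2.65, and 7 were higher and 2 lower in VGAT TRAP than in WCH (21% and 41.8% of all genes). Of 20 factors of cortical projection neurons 14 were higher in RBP4 TRAP (12.9% of all genes), such as Fezf2 (4.03), Neurod6 (3.43) and Etv1 (2.19), and 3 lower, namely Cux1 (−1.09), Bcl11b (−1.08) and Tle4 (−1.04). Against WCH, VGAT TRAP held less of 18 of them (41.8% of all genes), such as Rorb (−3.80) and Pou3f2 (−2.45), and more of Bcl11b (0.42). None of these lists had a member called between the lines in ST, where few of all genes were. Of 16898 genes tested there, 45 were called lower (0.266%) and 10 higher, so having 0 calls does not set these lists apart.

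The sums of subtype markers describe the mix of GABAergic neurons in VGAT TRAP, but as bulk sums they cannot assign a member to a kind. VGAT TRAP held 4488 to 5741 cpm of 5 markers of medial interneurons, 1162 to 1572 cpm of 6 markers of caudal interneurons and 3178 to 4949 cpm of 6 markers of striatal projection neurons. In VGAT WCH these sums were 374 to 489, 371 to 512 and 472 to 764 cpm. Markers of all 3 kinds of GABAergic neuron were thus present, and a level in cpm is an average over the tagged cells.

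Across all 40 libraries the log2(cpm + 1) levels of the Dlx genes and Lhx6 ran most closely together, with Pearson r of 0.981 between Dlx1 and Lhx6, and Sox6 least with Prox1 (0.187) and Nr2f2 (0.276). The libraries share their fractions and pools, so these values describe the series and carry no p. Of 14008 genes compared, those nearest to Dlx1 included Pcp4l1 and Arl4c (r = 0.969 each), and those nearest to Lhx6 the same genes (0.966 and 0.960). Pcp4l1 was also nearest to Dlx5 (0.966) and Dlx6 (0.978), each followed by Rpp25 (0.963 and 0.973) and Gm14204 (0.962 and 0.969). Dlx2 was nearest to Fam210b (0.942), Pcp4l1 (0.939) and Six3 (0.938), Sox6 to Nek7, Npas3 (0.921 each) and Pygo1 (0.918), and Maf to Nek7 (0.941), Arhgef6 (0.935) and Rbms3 (0.933). Prox1 was nearest to Slc25a36 (0.935), S100pbp and Lztfl1 (0.925 each). Nr2f2 had the loosest neighbours, Filip1 (0.805), Tnfaip8l3 (0.803) and Fgf11 (0.793).

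Most members overlap other genes, mostly on the other strand, and the libraries did not record strand, so reads in shared bases cannot be told apart by strand. The paper states that only uniquely aligned, unambiguous reads were counted, so reads in shared exon bases may have been left out rather than mixed. Dlx1as, the antisense RNA of Dlx1, covers 6.21% of the exon bases of Dlx1 and was at 5.88 to 9.57 cpm in VGAT TRAP and 1.79 to 3.15 cpm in VGAT WCH (log2 1.46, adjusted p = 0.0027). Dlx6os1, also known as Evf2, a long noncoding RNA whose span covers Dlx6 on the other strand, shares no exon base with it in these models. It was at 88.4 to 108 cpm in VGAT TRAP and 0.986 to 3.46 cpm in RBP4 TRAP (log2 −5.54), and it was also lower in RBP4 ST than in VGAT ST (log2 −1.46, adjusted p = 0.0265). Prox1os shares 1.59% of the exon bases of Prox1 and went the other way from it, at 6.08 to 12.6 cpm in VGAT TRAP and 3.86 to 5.25 cpm in VGAT WCH (log2 1.23, adjusted p = 2.26e-04). B130024G19Rik, opposite Nr2f2 with no shared exon base, reached 2.09 cpm at most, and Gm28172, opposite Prox1, 0.506 cpm. Dlx6os2 and Sox6os had at most 4 counts in a library, Gm27953, within Lhx6, and Gm15655, opposite Maf, had 0 in all, and 1 gene without a symbol within Prox1 reached 0.124 cpm.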

How the data were processed

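The authors made the libraries with a SMARTer Ultra Low kit, which does not mark strand, and read 50 bases from 1 end. They aligned with STAR 2.0.4b and counted uniquely aligned, unambiguous reads with featureCounts 1.4.5. The Ensembl release and the strand setting are not given in the sources used here. The deposited files give counts per gene, which were used, and the authors' CPM and RPKM values, which were checked to be recomputable from the counts. The levels in cpm printed here were recomputed after 390 mitochondrial, rRNA and tRNA genes were left out (mitochondrial genes held 0.0584 to 41.9% of a library), and the RPKM values from these cpm and the deposited gene lengths.

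Counts were tested with edgeR 4.0.16 (quasi-likelihood, library sizes without TMM), with adjustment over all genes tested and calls at an adjusted p of 0.05 or lower. Fits within a line used 20 libraries and fits between the lines 30 (WCH, TRAP and ST) or 40 where SNF entered, on genes at 0.5 cpm or more in at least 3 libraries. Log2 fold changes are given with SE, and 95% intervals are 1.96 SE to each side. On simulated counts of VGAT TRAP against WCH the test called 171 of 200 genes changed 2-fold and 199 of 200 changed 4-fold, and for the difference between the lines of the change from TRAP to ST 69 and 198. These counts had the real mean levels and library sizes, but the same dispersion for every gene and no pool effect. Only genes at a mean of 1 cpm or more were changed. Recovery may thus be lower for members with a wider spread.

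Same-numbered libraries of a line come from 1 pool per the methods. Their deviations correlated at a median r of 0.241 (RBP4, 30 pairs of groups and numbers) and 0.266 (VGAT), against −0.0663 and −0.0672 for other numbers, so the pool was used as a replicate block in an alternative fit. Across lines equal numbers pair no pools.

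The members, gene lists and tests were chosen with earlier results of these data known. Named are all members, genes overlapping them, the 3 genes nearest in level to each, and up to 3 genes per direction with the smallest p from each list. Some genes that this rule names are not reported here. The alternatives were TMM and DESeq2 size factors, DESeq2 1.42.0, a likelihood ratio test, other filters, all 40 libraries in 1 fit, no genes left out, the replicate block, each pool left out and the library RBP4 ST replicate 4 left out. Counting error and depth (1 count is 0.0455 to 0.112 cpm) limit the members near 1 cpm.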

Additional observations from a re-analysis of the deposited data

Results flagged for a closer look

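The change from WCH to TRAP differed between the lines by a test of the difference itself for 8 members. The RBP4 change less the VGAT change, on the log2 scale, was −5.08 for Dlx1, −4.48 for Dlx2, −5.68 for Dlx5, −5.44 for Dlx6, −4.65 for Lhx6, −3.70 for Sox6, −3.67 for Maf and −1.35 for Nr2f2. The change from TRAP to ST differed for the same 8 members in the other direction, by 4.53 for Dlx1, 4.14 for Dlx2, 4.34 for Dlx5, 4.43 for Dlx6, 4.30 for Lhx6, 3.44 for Sox6, 3.33 for Maf and 1.55 for Nr2f2. Both sets of values use the same TRAP libraries.

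Among 72 sets of 5 replicates examined, 2 held a library far from the other 4, where chance alone marks about 1 in 20 sets. Lhx6 was at 23.8 cpm in RBP4 WCH replicate 4 with the others at 15.2 to 17.7 cpm. Sox6 was at 66.8 cpm in VGAT ST replicate 3 with the others at 38.1 to 43.9 cpm.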

How the results depend on the processing

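All 9 members stayed lower in RBP4 than in VGAT TRAP and 8 stayed lower in VGAT ST than in TRAP under every alternative. Over the alternatives 8 to 9 members were called lower in RBP4 TRAP than in WCH, 7 to 8 higher in VGAT TRAP than in WCH, and 4 to 6 higher in RBP4 ST than in TRAP. In the tests between the lines of the change from WCH to TRAP and of that from TRAP to ST 7 to 8 were called. An unadjusted p under 0.05 gave 9 in each of these tests. Fold changes were recomputed for members called as reported or under any alternative, and for a few others printed with a p. Of these recomputed values 1378 kept their direction and side of the threshold, 67 lost the call, 42 gained one and 8 reversed. Scaling mattered most for SNF against WCH: with DESeq2, TMM or DESeq2 size factors 2 members were called lower in the RBP4 line in place of 6, and with DESeq2 or its factors 5 in the VGAT line in place of 8. Sox6 reversed there without a call, to 0.17, 0.074 and 0.16 in the RBP4 line and 0.32, 0.23 and 0.32 in the VGAT line with DESeq2, TMM and DESeq2 factors. In VGAT ST against TRAP it reversed to −0.032 with no genes left out and ranged from −0.10 to 0.18 over the pools left out. Leaving out a pool gave 3 to 6 calls in RBP4 SNF against WCH, 0 to 1 lower in RBP4 and in VGAT ST against SNF, and 0 to 3 in ST between the lines. In RBP4 ST against SNF 1 member was called lower in place of 0 with the likelihood ratio test, DESeq2, its factors, the filter of 1 cpm in 5 libraries or all 40 libraries, and 2 at an unadjusted p. In VGAT ST against SNF 5 were higher in place of 3 with no genes left out or an unadjusted p, and with all 40 libraries 1, Dlx6, which was not among the 3, and 1 was lower in place of 0 with DESeq2, TMM, DESeq2 factors or an unadjusted p. In ST between the lines the 1 call became 2 with the likelihood ratio test or without RBP4 ST replicate 4, 0 with TMM, DESeq2 factors or no genes left out, and 4 at an unadjusted p, where the change from SNF to ST gave 2 in place of 0. The replicate block, which pairs the fractions of a pool, gave 1 lower in RBP4 ST against SNF and 5 higher in VGAT ST against SNF, and between the lines, where the numbers pair no pools, 0 in ST. With the pool as the block the calls on Nr2f2 in the tests of a change between the lines held (adjusted p = 0.0016 from WCH to TRAP and 7.6e-04 from TRAP to ST), an alternative chosen after seeing the data. Beside the results above, the block changed no other call of a member within a line. Over all genes, calls in ST between the lines went from 55 to 140 (likelihood ratio test), 138 (DESeq2) and 195 (without RBP4 ST replicate 4), with 7 to 160 over the pools left out, those of RBP4 ST against SNF from 1893 to 3008 with all 40 libraries and to 735 without RBP4 replicate 1, those between the lines in WCH from 2 to between 0 and 4 and in SNF from 3 to between 1 and 17, and those of the change from SNF to ST from 0 to 4 with the likelihood ratio test. The cause of these changes was not tested. Dlx2, Dlx5 and Dlx6 rest on few counts outside VGAT TRAP.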
